A study of Arabidopsis thaliana with 15 samples.

Results

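The transcriptome of Arabidopsis leaves after the first 15 min of high light (HL15) was compared with that of leaves kept in growth light (GL). HL15 plants had spent 15 min at 1000 µmol photons per square metre and second, and GL plants had stayed at their growth irradiance of 100 µmol and were sampled before the treatment began. All plants were of the Col-0 ecotype, 6 to 7 weeks old, grown in an 8 h photoperiod and untreated apart from light, and RNA was taken from leaves. There were 3 biological replicates in each group, so that 6 of the 15 libraries of the series carried the comparison. The other 9 libraries came from leaves after 60 min of high light (HL60) and after 15 or 60 min of recovery at growth light that followed those 60 min (R15 and R60). HL15 plants were harvested later in the day than GL plants, without a growth-light group of the same clock time, so time of day and light cannot be told apart. Leaf temperature during the treatment is not given in the sources used here.

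The table listed 21593 genes, and 20512 of them, whose values summed to at least 10 across the 15 libraries, entered the test. Values are normalized counts, which are read counts divided by a factor for each library, and replicate values are given in the order 1, 2, 3. A gene was called when its difference in log2(value + 1) between HL15 and GL leaves had an adjusted p under 0.05 (limma, Benjamini-Hochberg over the 20512 genes) and was at least 2-fold. A log2 difference of 1 is thus a 2-fold change, the errors beside log2 differences are standard errors (SE), and changes of genes with low counts are understated on this scale. Of the 200 genes that the rule for naming genes picked, 40 overlap a gene on the opposite strand, among them HSP101, HSP17.4, MBF1C, RRTF1 and DREB2A. No strand of the libraries is given, so reads of such pairs cannot be told apart.

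High light drives photosynthetic electron transport faster than carbon fixation can use it, and the surplus gives rise to reactive oxygen species and heat. Leaf cells read the change through photoreceptors, through redox and calcium signals from chloroplasts and through unfolded proteins, which release heat shock transcription factors from their chaperone partners. Known targets of these routes include chaperones, zinc finger and ERF regulators, jasmonate genes and the light regulator HY5, while growth-related genes responsive to auxin, cytokinin and gibberellin follow light and sugar status.

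The libraries held between 20237452 and 28102714 estimated reads in HL15 leaves and between 17303499 and 20491871 in GL leaves. The 3 HL15 libraries were not equally alike. Replicates 2 and 3 differed from each other by a chi-square of 1.57 per degree of freedom over genes, where sampling noise alone gives about 1, and replicate 1 differed from them by 39.6 and 33.5. GL pairs ranged between 4.14 and 6.68. HL60 replicate 1 differed from HL60 replicates 2 and 3 by 74.5 and 92.2, and those 2 differed from each other by 20.5. All R15 and R60 pairs lay above the GL pairs and below the distances of HL15 replicate 1. Distances as large as those of HL15 replicate 1 were thus not confined to HL15 leaves. Of 12825 genes with a mean of 100 or more, 70 were at least 2-fold higher and 226 at least 2-fold lower in HL15 replicate 1 than in the mean of the other two. The same counts for the GL libraries were 8 to 41 higher and 5 to 51 lower. The genes that were higher in replicate 1 included small heat shock proteins, and those that were lower included jasmonate and ERF genes. Results on these groups are thus given with and without that library. Replicates 2 and 3 were more alike than any other pair of replicates in the series. The main fit counts them as separate replicates, so its standard errors may understate the spread among HL15 leaves. With these 2 averaged to 1 sample, 1466 genes were called instead of 1939. Fits without replicate 1 rest on these 2 HL15 libraries alone and may likewise call too many genes. A list of 8 mesophyll markers held no called gene (2 at an unadjusted p under 0.05), and its summed level was 1256331 to 1404823 in HL15 leaves, against 1497337 to 1532132 in GL leaves. Among 10 common reference genes none was called (3 at an unadjusted p under 0.05 in limma), and the polyubiquitin gene UBQ10 differed by -0.79 ± 0.17 (adjusted p = 0.0042).

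Within 15 min of high light, 983 genes were higher (4.79% of those tested) and 956 were lower (4.66%), together 9.45%. On the log2(value + 1) scale the rises were larger than the falls. The median rise among called genes was 1.69 on the log2 scale, with 353 genes raised at least 4-fold, 74 at least 16-fold and 33 at least 64-fold. The median size of a fall was 1.51, and 231 genes fell at least 4-fold, 12 at least 16-fold and none at least 64-fold. A fall on this scale cannot exceed the GL level itself, so falls from low GL levels are capped. Fewer of the genes called lower than of those called higher had a mean of 100 or more. The part of the scale in the smaller size of the falls was not tested. In 973 of the 983 higher genes and 939 of the 956 lower genes the HL15 and GL libraries did not overlap. Over all genes, 22.8% had every HL15 library above every GL library and 25.1% had every HL15 library below. With a threshold on adjusted p alone, 2343 genes were higher (11.4%) and 2712 lower (13.2%). Without HL15 replicate 1, 1079 genes were higher (5.26%) and 1042 lower (5.08%), and 893 and 818 of the genes above were still among them. These larger counts rest on 2 HL15 libraries that were almost alike. With those 2 averaged to 1 sample beside replicate 1, 740 genes were higher and 726 lower.

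**Figure D1:**
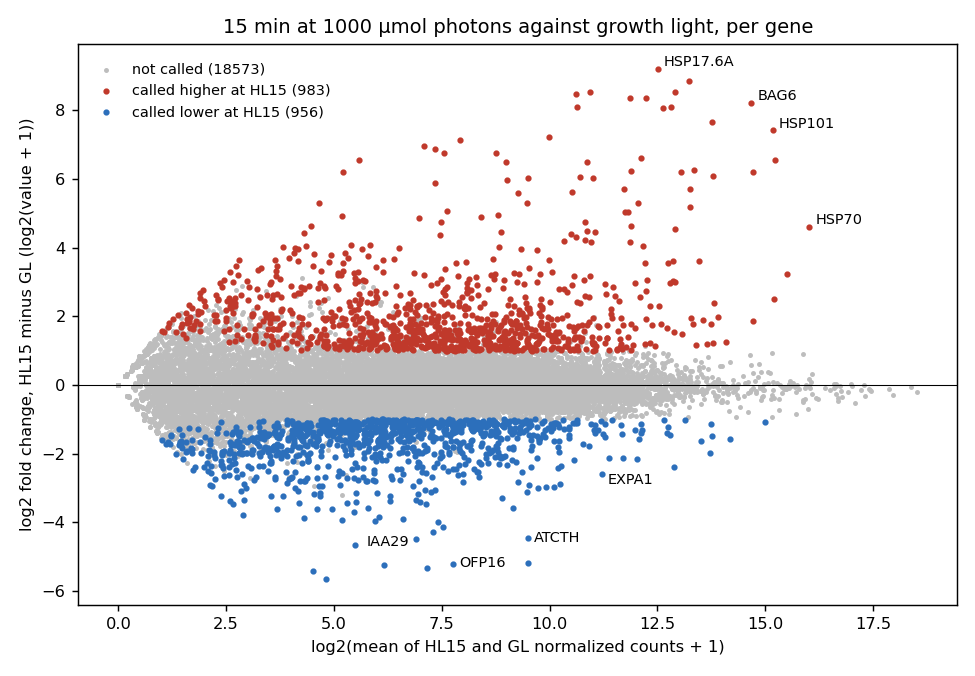
Log2 difference of each of the 20512 genes tested, HL15 minus GL (vertical axis), against its mean level over the 6 libraries (horizontal axis, log2 of normalized counts + 1), with called genes in colour. The largest rises reached 9.19 on the log2 scale and the largest fall 5.66, and the median over all genes was -0.03.

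Heat shock proteins, their co-chaperones and the transcription factors that control them made up most of the steepest rises. The 6 lists of such genes held 88 tested genes, of which 52 rose and none fell. Leaving out 1 library gave 49 to 52 rises and at most 2 falls, the 2 without GL replicate 2. Together they took 7.29, 4.84 and 4.85% of all normalized counts in HL15 leaves, against 0.958, 0.936 and 0.871% in GL leaves. The 12 largest rises among called genes with a mean of 100 or more all belonged to this chaperone network.

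**Figure D2:**
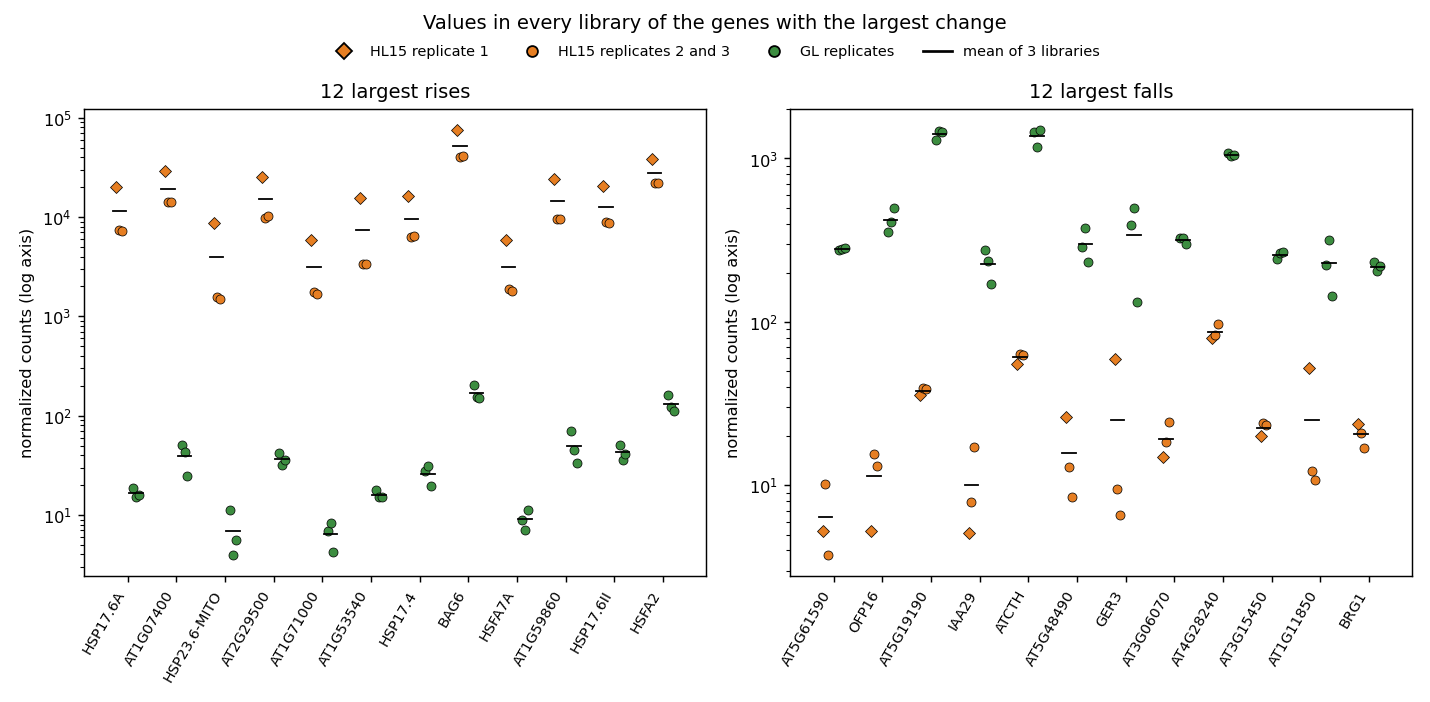
Normalized counts (log axis) of the 12 genes with the largest rise and the 12 with the largest fall among called genes with a mean of 100 or more, with 1 point for each HL15 and GL library. Only genes whose HL15 and GL libraries did not overlap could be picked, so the gap between the points was set by the choice.

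Heat shock transcription factors (HSFs) are the regulators of this network, and 9 of 20 tested members rose while none fell, with a list median of 0.64 beside -0.03 over all genes. Without GL replicate 2, 7 rose and 2 fell. HSFA2, which sustains the heat response after its onset, had 38233, 22243 and 22258 normalized counts in HL15 leaves, against 161, 122 and 112 in GL leaves (7.67 ± 0.46, adjusted p = 6.5e-08). HSFA7A had 5834, 1898 and 1781 counts in HL15 leaves, against 8.87, 6.98 and 11.3 in GL leaves (8.09 ± 0.51, adjusted p = 1.0e-07). For both genes the lowest HL15 library lay more than 100-fold above the highest GL library, and replicate 1 was the highest. The related AT-HSFA7B was at 0 in every GL library and at 63.4, 6.10 and 8.48 counts in HL15 leaves, a mean at least 8.66-fold higher than a floor of 3 counts per library, or at least 2.43-fold without replicate 1. Class B factors, which act as repressors or co-regulators, rose as well. HSF4 (also known as HSFB1) rose by 4.3 ± 0.31 and AT-HSFB2B by 4.17 ± 0.27 (adjusted p = 3.6e-07 and 1.4e-07). HSFA8, a further class A factor, rose by 2.75 ± 0.29 (adjusted p = 1.5e-05).

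Small heat shock proteins, which hold unfolding proteins in a soluble state, rose in nearly the whole family. Of the 12 cytosolic members tested 10 rose, with a list median of 8.08, or 9 with a median of 7.64 without replicate 1. HSP17.4 had 16224, 6284 and 6469 counts in HL15 leaves, against 27.7, 30.9 and 19.8 in GL leaves (8.35 ± 0.62, adjusted p = 4.3e-07). AT1G53540, a member of the same HSP20-like family, had 15449, 3364 and 3362 counts in HL15 leaves, against 17.7, 15.0 and 15.1 in GL leaves (8.37 ± 0.80, adjusted p = 5.5e-06). Every HL15 library stood far above every GL library, and within HL15 leaves replicate 1 had several times the counts of the other libraries. The spread was wider still for members in organelles, all 6 of which rose, with a median of 6.50 and of 5.32 without replicate 1. HSP21, a chloroplast member, was at 0 in all GL libraries and had 711, 51.5 and 49.9 counts in HL15 leaves, whose mean without replicate 1 was at least 16.9-fold above the floor. HSP23.6-MITO, a mitochondrial member, had 8754, 1566 and 1493 counts in HL15 leaves, against 11.1, 3.99 and 5.65 in GL leaves (8.54 ± 0.80, adjusted p = 4.7e-06).

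Chaperones that refold proteins with ATP moved less uniformly. Of 10 HSP90 and HSP100 genes 6 rose, and of 16 HSP70 and HSP110 genes 6 rose, with list medians of 1.92 and 0.77. HSP101, the cytosolic disaggregase needed for thermotolerance, had 109773, 55126 and 55137 counts in HL15 leaves, against 443, 368 and 385 in GL leaves (7.44 ± 0.44, adjusted p = 6.4e-08). HSP90.1, the inducible cytosolic HSP90, had 97426, 64751 and 64133 counts, against 887, 703 and 773 in GL leaves (6.56 ± 0.35, adjusted p = 2.9e-08). The disaggregases of organelles rose less, CLPB4 by 4.17 ± 0.29 and CLPB3 by 1.97 ± 0.24 (adjusted p = 2.2e-07 and 5.4e-05). HSP70 rose by 4.60 ± 0.21 (adjusted p = 2.8e-08) on a GL level that was already 4923 to 5912 counts. The plastid HSP90 CR88 had 20724, 14570 and 14673 counts in HL15 leaves, against 9655, 9891 and 8402 in GL leaves, a difference of 0.82 ± 0.17 that stayed under 2-fold. HSP81-2 and HSP81-3, cytosolic HSP90 genes, rose by 3.23 ± 0.20 and 1.87 ± 0.21 (adjusted p = 1.0e-07 and 2.9e-05), but they share 27.8 and 35.8% of their 31-base words with other transcripts, so the split of reads between them is uncertain.

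Co-chaperones and heat stress cofactors rose in 15 of 24 cases, with a median of 1.78 and no fall. BAG6, which binds HSP70 through its BAG domain, had 74635, 40645 and 40984 counts in HL15 leaves, against 203, 154 and 151 in GL leaves (8.21 ± 0.43, adjusted p = 2.9e-08). The peptidyl-prolyl isomerase AT5G48570, the HSP70-HSP90 adaptor Hop3 and the HSP70 exchange factor Fes1A rose by 6.20 ± 0.32, 6.08 ± 0.32 and 5.70 ± 0.33 (adjusted p = 2.8e-08, 2.8e-08 and 4.8e-08). MBF1C, a transcriptional coactivator of the heat response, had 25680, 15725 and 15615 counts, against 559, 511 and 469 in GL leaves (5.17 ± 0.40, adjusted p = 5.8e-07). AT1G71000, a DnaJ-domain protein, rose by 8.49 ± 0.79 (adjusted p = 3.8e-06).

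The heat shock element, the site that HSF trimers bind, was searched for in the 250 bases before each gene start. The windows below were picked because they hold a match and lie before genes with some of the largest rises. In its form of 3 alternating modules the motif reads GAANNTTCNNGAA or TTCNNGAANNTTC on either strand, and any such match also holds the form of 2 modules (GAANNTTC or TTCNNGAA). The sequences are from the RefSeq copy of TAIR10.1, run 5′ to 3′ on the strand of the gene, and have matches to the 3-module form in capitals. Which genes to show was decided after their values were seen. The HSFA2 window is chr2:11135514-11135573 (plus strand), 110 to 51 bases before the gene start, and that of HSFA7A is chr3:19264941-19265020 (plus strand), beginning 200 bases before it. The HSP17.4 window, chr3:16984868-16984977 (minus strand), is the last 110 bases before the gene. The others are chr1:19980224-19980283 (plus strand) for AT1G53540, chr1:26770268-26770327 (minus strand) for AT1G71000 and chr5:1602020-1602079 (plus strand) for DREB2A.
HSFA2: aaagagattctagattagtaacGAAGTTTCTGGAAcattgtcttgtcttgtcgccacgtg
HSFA7A: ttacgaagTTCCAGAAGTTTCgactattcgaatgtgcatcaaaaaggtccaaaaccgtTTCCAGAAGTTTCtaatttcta
HSP17.4: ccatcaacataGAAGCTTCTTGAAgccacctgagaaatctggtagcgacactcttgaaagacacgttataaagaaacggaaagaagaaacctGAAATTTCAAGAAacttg
AT1G53540: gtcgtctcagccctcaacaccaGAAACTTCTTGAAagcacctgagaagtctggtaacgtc
AT1G71000: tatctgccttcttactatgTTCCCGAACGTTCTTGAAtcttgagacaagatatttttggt
DREB2A: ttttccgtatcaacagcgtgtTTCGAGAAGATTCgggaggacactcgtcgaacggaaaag

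HSFA7A, HSP17.4 and AT1G71000 each had 2 matches, which overlap in AT1G71000. Over all genes, a 3-module element was found in 20 of 970 promoters of genes that rose (2.06%), in 2 of 956 promoters of genes that fell (0.209%) and in 86 of 20337 promoters of all tested genes (0.423%). Among the 74 genes raised at least 16-fold, 9 promoters held one (12.2%). The genes with a match that rose also included PUB19, GolS1, ERF-1, BI1 and NAC2. Most promoters of the heat lists had no match, with 2 of 12 cytosolic small heat shock proteins and 3 of 20 HSFs holding one. None of the 6 organellar small heat shock proteins or 24 co-chaperones and cofactors held one. The listed HSP90, HSP100, HSP70 and HSP110 genes held none either, which says only that these letters are not in these windows. The 2-module form was common, in 22.6% of promoters of genes that rose, 13.7% of those that fell and 15.9% of all.

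Rapid stress regulators other than HSFs also rose, but here HL15 replicate 1 was the lowest of the 3 libraries for most of the rising genes described. Zinc finger repressors of the C2H2 type, early markers of reactive oxygen and wounding, rose in 5 of 11 cases (median 1.14, and 6 cases with a median of 1.71 without replicate 1). STZ (also known as ZAT10) had 244, 884 and 849 counts in HL15 leaves, against 20, 13 and 22.6 in GL leaves (4.90 ± 0.78, adjusted p = 5.0e-04). ZAT6 had 553, 1009 and 1032 counts, against 32.2, 17.9 and 31.1 in GL leaves (4.94 ± 0.53, adjusted p = 1.6e-05). RHL41, or ZAT12, rose by 3.97 ± 0.76 (adjusted p = 0.002). In all of them even the lowest HL15 library was several times the highest GL library.

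Among 23 ERF factors 9 rose and 2 fell (median 0.08), and the counts were the same without HL15 replicate 1 (median 0.20). RRTF1, a redox-responsive ERF that feeds reactive oxygen production, had 84.2, 511 and 524 counts in HL15 leaves, against 1.11, 1.99 and 1.88 in GL leaves (6.75 ± 1.3, adjusted p = 0.002). ERF6, ERF11 and ERF13 rose by 3.25 ± 0.57, 3.64 ± 0.71 and 3.69 ± 0.59 (adjusted p = 0.0011, 0.0022 and 5.3e-04). The ERF gene AT5G61590 went the other way, with 5.22, 10.2 and 3.77 counts in HL15 leaves, against 274, 280 and 283 in GL leaves (-5.34 ± 0.60, adjusted p = 2.6e-05). DREB2A, which links drought and heat responses, had 1443, 781 and 777 counts in HL15 leaves, against 8.35, 9.39 and 11.1 in GL leaves (6.50 ± 0.36, adjusted p = 3.4e-08). DREB2A differed from the ERF genes in that replicate 1 was its highest library. Its list of 21 CBF, DREB and cold-regulated genes had 6 rises and 3 falls, or 5 and 2 without replicate 1. CBF2, a cold acclimation activator, rose by 2.80 ± 0.56 (adjusted p = 0.0027).

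WRKY factors and calcium sensors followed. Of 51 WRKY genes 6 rose and 2 fell, but 4 rose and 1 fell without HL15 replicate 2 or 3 or GL replicate 1, and 1 fell without either of the other GL replicates. WRKY40 had 142, 421 and 450 counts in HL15 leaves, against 9.98, 17.0 and 14.1 in GL leaves (4.38 ± 0.61, adjusted p = 1.6e-04), and WRKY33, a regulator of defence metabolism, rose by 3.01 ± 0.31 (adjusted p = 1.0e-05). Of 11 calmodulin-like genes 5 rose and none fell. TCH3, named for its response to touch, had 1222, 3317 and 3290 counts in HL15 leaves, against 279, 346 and 320 in GL leaves (2.91 ± 0.57, adjusted p = 0.0022). CML37 and CML38 rose by 3.16 ± 0.67 and 3.30 ± 0.81 (adjusted p = 0.0037 and 0.0089). WRKY33 and WRKY40 also belong to a list of 8 markers of singlet oxygen, a reactive oxygen species formed in chloroplasts, of which 4 rose and 1 fell with a median of 1.02. The other rises, of BAP1 and SIB1 (1.87 ± 0.61 and 1.00 ± 0.34, adjusted p = 0.039 and 0.044), were both lost without any 1 of the HL15 and GL libraries except HL15 replicate 1. The member that fell was FER1, the iron store ferritin 1, with 1178, 735 and 720 counts in HL15 leaves, against 3284, 2512 and 3117 in GL leaves (-1.79 ± 0.34, adjusted p = 0.0018).

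Jasmonate genes differed widely among the HL15 libraries. JAZ repressors, which block jasmonate responses and are themselves induced by the hormone, rose in 3 of 12 cases, in 6 of 12 without replicate 1 and in 2 of 12 without any other of the HL15 and GL libraries. The median difference of the 12 genes from the GL mean was 0.13 in HL15 replicate 1, 1.96 in replicate 2 and 1.89 in replicate 3. JAZ1 had 695, 2052 and 1953 counts in HL15 leaves, against 109, 54.0 and 132 in GL leaves (3.92 ± 0.86, adjusted p = 0.0046), so it stood above GL in every library. JAZ6 had 990, 3051 and 3102 counts, against 1003, 902 and 985 in GL leaves (1.13 ± 0.53, adjusted p = 0.14), with replicate 1 inside the GL range. Of 13 oxylipin synthesis enzymes 3 rose, or 4 without HL15 replicate 1, but 1 without HL15 replicate 2 or 3 or GL replicate 2. LOX4, a lipoxygenase, and AOC3, an allene oxide cyclase (2.81 ± 0.80 and 2.61 ± 0.73, adjusted p = 0.02 and 0.018), lost their calls without each of these 3 libraries, and LOX4 also without GL replicate 1, where 2 enzymes rose. OPCL1, an activating enzyme of jasmonate precursors, had 2386, 6953 and 6760 counts in HL15 leaves, against 935, 700 and 1044 in GL leaves (2.45 ± 0.55, adjusted p = 0.0051). OPR3, the reductase of the jasmonate precursor OPDA, had 1075, 4650 and 4569 counts, against 769, 578 and 834 in GL leaves (1.98 ± 0.85, adjusted p = 0.11), and without replicate 1 its difference of 2.68 passed the test.

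The rapid stress response element CGCGTT, a wound and stress motif, was found in 6.29% of the promoters of genes that rose, 2.2% of those that fell and 2.85% of all. Windows from 3 genes that rose are shown, with the motif or its reverse complement AACGCG in capitals, from the same reference and chosen after their values were seen. They are chr1:6621627-6621676 (plus strand) for JAZ1, which holds the motif on both strands in one overlapping run, chr3:3994087-3994136 (minus strand) for HSP70 and chr2:12634296-12634345 (minus strand) for the small heat shock protein AT2G29500.
JAZ1: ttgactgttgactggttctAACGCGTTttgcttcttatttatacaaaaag
HSP70: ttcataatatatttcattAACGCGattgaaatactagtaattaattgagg
AT2G29500: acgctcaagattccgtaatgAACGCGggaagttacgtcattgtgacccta

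Further motifs were searched for in the same sets. The W-box, which WRKY factors bind, has the core TTGAC, and it was in 50% of promoters of genes that rose, 41.7% of those that fell and 44.7% of all. The G-box CACGTG was in 10.6, 6.80 and 7.38%, the C-repeat CCGAC in 15, 10.9 and 13.1%, and the evening element AAAATATCT in 4.95, 2.09 and 2.47% of the same sets. The site II motif TGGGCC was in 12.4, 9.73 and 16.4%. In the 74 genes raised at least 16-fold, which belong to the first of these sets, the W-box was in 47.3%, the G-box in 13 promoters, the C-repeat in 13.5% and the evening element in 4.05%. Site II was in 28.4% of these 74 promoters and in 8 of the 12 of cytosolic small heat shock genes (66.7%), above its share in all genes, where the whole set of genes that rose lay below it. The rapid stress response element was in 5.41% of the 74.

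**Figure D3:**
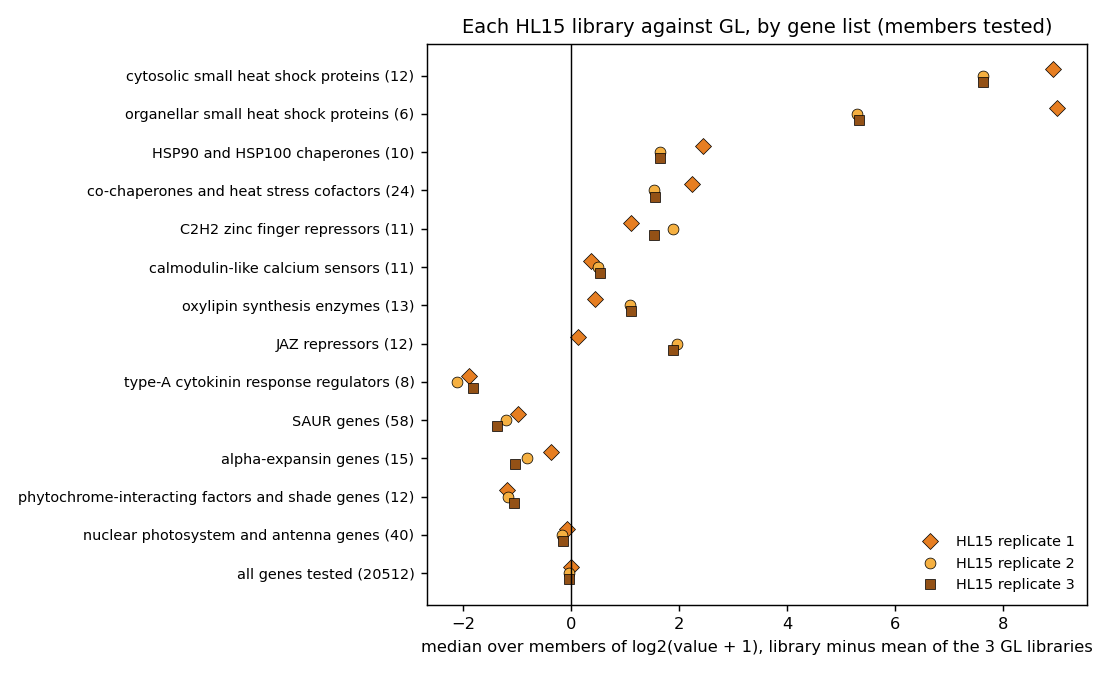
Difference of each HL15 library from the GL mean, in log2(value + 1), as the median over the members of the lists shown. Chaperone lists were highest in replicate 1 (organellar small heat shock proteins 9.01, against 5.29 and 5.34 in replicates 2 and 3), and JAZ and oxylipin lists were lowest in it.

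Light signalling genes moved in both directions. Of 20 HY5 and B-box genes 8 rose and 3 fell, and the counts were the same without replicate 1. HY5, the bZIP activator of light-responsive genes, had 484, 571 and 622 counts in HL15 leaves, against 73.1, 70.8 and 74.1 in GL leaves (2.92 ± 0.16, adjusted p = 2.9e-08). The B-box genes BBX31 and BBX32 rose by 3.25 ± 0.30 and 3.24 ± 0.37 (adjusted p = 4.1e-06 and 3.2e-05). BBX14 had 213, 275 and 264 counts in HL15 leaves, against 1904, 1914 and 2059 in GL leaves (-2.97 ± 0.38, adjusted p = 7.8e-05). BBX15 and BBX27 fell by 2.16 ± 0.15 and 2.46 ± 0.34 on the log2 scale (adjusted p = 3.0e-07 and 1.6e-04). The B-box family was thus split, with rises and falls of similar size.

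No photoreceptor, COP1 complex or RUP gene was called by limma among 18 tested, of which 10 had an unadjusted p under 0.05, and 1 was called lower without GL replicate 3. The blue light receptor gene CRY1 had 2355, 2423 and 2365 counts in HL15 leaves, against 4496, 4158 and 4589 in GL leaves, and its difference of -0.89 ± 0.09 (adjusted p = 1.3e-05) was just under 2-fold. PHYB, the red light receptor, differed by 0.57 ± 0.09 (adjusted p = 4.7e-04). Phytochrome-interacting factors and shade genes, which promote elongation, fell in 5 of 12 cases with no rise and a median of -1.28, and 3 of the 5 calls were lost without HL15 replicate 1 (PIL1, HB-2 and the auxin synthesis gene YUC9), while PIF7 was then called, at -1.01. The call of YUC9 was lost without any 1 of the 6 libraries, that of PIL1 without any except HL15 replicate 3, and the list had 3 or 4 falls when any 1 library was left out. PIL5, or PIF1, had 256, 271 and 232 counts in HL15 leaves, against 628, 584 and 639 in GL leaves (-1.28 ± 0.20, adjusted p = 4.7e-04). All HL15 libraries lay below GL for 10 of the 12 genes, beside 25.1% of all genes tested.

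Flavonoid and anthocyanin genes had moved both ways by 15 min, with 3 rises and 5 falls among 23. PAP1, a MYB activator of anthocyanin synthesis, had 190, 619 and 607 counts in HL15 leaves, against 84.3, 45.9 and 65.0 in GL leaves (2.70 ± 0.41, adjusted p = 3.7e-04). MYBL2, a repressor of the same branch, fell by 1.63 ± 0.24 (adjusted p = 2.7e-04). The entry enzyme PAL1 fell by 1.27 ± 0.14 and the chalcone synthase gene TT4 by 2.24 ± 0.51 (adjusted p = 2.5e-05 and 0.0056). UGT78D2, a flavonoid glucosyltransferase, rose by 1.19 ± 0.16 (adjusted p = 1.5e-04). MYB111, an activator of the flavonol branch, was called lower (-1.60 ± 0.51, adjusted p = 0.033) with 0, 0 and 1.88 counts in HL15 leaves, against 1.11, 3.99 and 6.6 in GL leaves. These few counts overlapped between the groups, and the call was lost with a pseudocount of 5, in a fit of the HL15 and GL libraries only, and without HL15 replicate 1 or 2 or GL replicate 2 or 3. The remaining called genes, F3H (flavanone 3-hydroxylase) and 4CL1 (4-coumarate:CoA ligase), differed by 1.02 ± 0.13 and -1.03 ± 0.19 (adjusted p = 9.0e-05 and 0.0018) and were named after their values were seen. Enzymes were thus among both the genes that rose and those that fell. The activator PAP1 rose, and the only activator called lower was MYB111, whose call was not stable.

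Clock genes changed in both directions, with 2 rises and 1 fall among 13 morning genes (23.1%) and 2 rises and 1 fall among 16 day and evening genes (18.8%), beside 9.45% called over all genes. The day and evening rises were 1 to 3 when a library was left out (1 without HL15 replicate 3 or GL replicate 2, 3 without HL15 replicate 1 or GL replicate 1). As the groups were harvested at different times of day, light and clock time cannot be told apart here. LHY, a morning repressor, had 287, 315 and 336 counts in HL15 leaves, against 844, 733 and 854 in GL leaves (-1.37 ± 0.16, adjusted p = 4.7e-05). GI, whose transcript peaks late in the day, had 927, 1169 and 1149 counts, against 305, 283 and 332 in GL leaves (1.81 ± 0.14, adjusted p = 7.5e-07). EPR1, a morning MYB-like gene, rose by 2.41 ± 0.27 (adjusted p = 2.5e-05), but 48.5% of its 31-base words occur in another transcript.

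**Figure D4:**
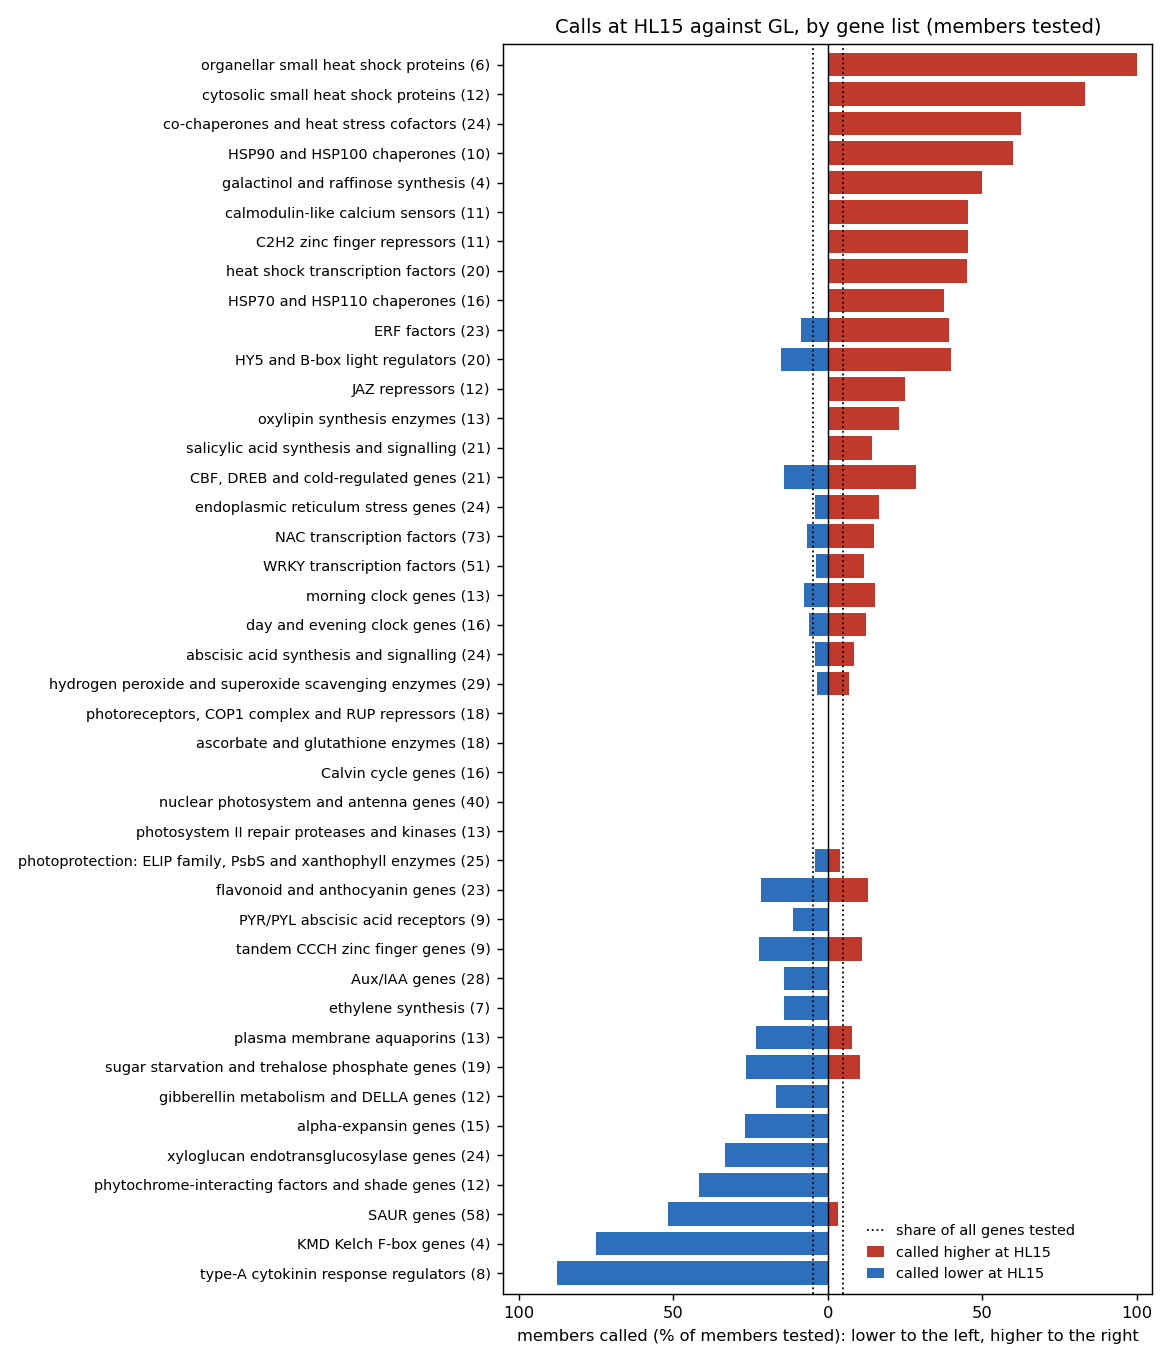
Share of the tested members of each gene list (number in brackets) that was called at HL15 against GL, in percent, with higher genes to the right and lower genes to the left of 0, and dotted lines at the shares over all genes tested (4.79% higher, 4.66% lower). Chaperone lists had calls only to the right, type-A response regulators only to the left, and the photosystem and Calvin cycle lists had none.

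The photosynthesis lists held no called gene at 15 min, beside 9.45% called over all genes. The photoprotection list had 2 of 25 called (8.00%), near that share. None of 40 nuclear photosystem and antenna genes, 16 Calvin cycle genes and 13 photosystem II repair genes was called by limma, with 11, 3 and 4 genes at an unadjusted p under 0.05. Small shifts were still ordered, since 23 of the 40 photosystem genes had all HL15 libraries below all GL libraries, a share of genes that was 25.1% over all tested. LHCB2.3, an antenna gene, had 41540, 36639 and 36362 counts in HL15 leaves, against 66250, 65500 and 74724 in GL leaves (-0.85 ± 0.20, adjusted p = 0.0061). NPQ4, which encodes the PsbS protein of energy quenching, had 55301, 49953 and 50329 counts, against 55600, 54578 and 51481 in GL leaves (-0.06 ± 0.13, adjusted p = 0.79). In the photoprotection list of 25 genes, ELIP1, an early light-induced protein, rose, with 218, 131 and 117 counts in HL15 leaves, against 52.1, 55.8 and 32.0 in GL leaves (1.70 ± 0.30, adjusted p = 0.001). ELIP2 was near 0 in both groups, with 1.36 to 3.77 counts in HL15 leaves and 5.54 to 6.6 in GL leaves, and its call as lower (-1.09) was lost with a pseudocount of 5, in a fit of the HL15 and GL libraries only, with the replicate block and without any 1 of the 6 libraries except HL15 replicate 3.

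Antioxidant enzymes gave 2 rises and 1 fall among 29 scavenging enzymes (10.3%), near the 9.45% called over all genes. There was no call by limma among 18 ascorbate and glutathione enzymes (5 at an unadjusted p under 0.05). The fall, of the plastid superoxide dismutase CSD2 (-1.40 ± 0.39, adjusted p = 0.017), was lost without HL15 replicate 2 or 3 or GL replicate 1 or 2. APX2, the cytosolic ascorbate peroxidase known for its induction by high light, had 218, 17.0 and 9.45 counts in HL15 leaves, against 1.15, 1.04 and 0.979 in GL leaves (4.07 ± 1.11, adjusted p = 0.016), and its call was lost without replicate 1, where the difference was 2.74. GPX6, a glutathione peroxidase, rose evenly, with 1739, 1895 and 1878 counts, against 716, 651 and 707 in GL leaves (1.41 ± 0.18, adjusted p = 7.5e-05). The monodehydroascorbate reductase gene ATMDAR2 and GPX7 differed by 0.91 ± 0.16 and 0.92 ± 0.11 (adjusted p = 9.8e-04 and 4.7e-05), both under 2-fold.

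Many growth-related hormone genes fell. Type-A response regulators, the negative feedback genes of cytokinin signalling, fell in 7 of 8 cases with a median of -1.94, and the same count fell without replicate 1. ARR7 had 58.2, 62.4 and 65.0 counts in HL15 leaves, against 489, 463 and 380 in GL leaves (-2.82 ± 0.14, adjusted p = 2.8e-08). ARR15 had 9.69, 8.81 and 2.83 counts in HL15 leaves, against 140, 120 and 85.8 in GL leaves (-3.95 ± 0.55, adjusted p = 1.7e-04). The exception was RR16, with 19.8, 28.7 and 22.1 counts in HL15 leaves, against 45.6, 40 and 44.0 in GL leaves (-0.86 ± 0.37, adjusted p = 0.1), which was lower in every library without passing the test. Of 4 KMD genes, which encode Kelch F-box proteins that mark type-B response regulators for degradation, 3 fell. AT1G80440 had 14.9, 25.8 and 32.0 counts in HL15 leaves, against 261, 177 and 228 in GL leaves (-3.19 ± 0.74, adjusted p = 0.0065).

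Auxin-responsive genes fell in number rather than uniformly. Of 58 SAUR genes, small auxin-induced transcripts linked to cell expansion, 30 fell and 2 rose, with a median of -1.23, against 956 falls among all 20512 genes. Leaving out 1 library gave 20 to 29 falls and 1 or 2 rises, with 20 falls and 1 rise without HL15 replicate 2 or 3 or GL replicate 2. SAUR29 had 29.1, 33.2 and 29.2 counts in HL15 leaves, against 254, 266 and 301 in GL leaves (-3.12 ± 0.33, adjusted p = 1.4e-05). AT4G12410 was an exception that rose, with 38.8, 23.7 and 34.9 counts, against 0, 0.997 and 3.77 in GL leaves (3.95 ± 0.65, adjusted p = 6.3e-04). Of 28 Aux/IAA genes, which encode auxin response repressors, 4 fell and none rose (14.3%, beside 4.66% called lower over all genes). IAA29 had 5.08, 7.89 and 17.2 counts in HL15 leaves, against 277, 236 and 170 in GL leaves (-4.49 ± 0.93, adjusted p = 0.0032).

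Cell wall loosening genes moved the same way. Alpha-expansins fell in 4 of 15 cases and xyloglucan endotransglucosylases in 8 of 24, with no rise (1 endotransglucosylase rose without HL15 replicate 1). EXPA1 had 939, 598 and 541 counts in HL15 leaves, against 4201, 4189 and 3685 in GL leaves (-2.58 ± 0.22, adjusted p = 1.9e-06). XTH4 and XTH6 fell by 2.1 ± 0.25 and 2.1 ± 0.32 (adjusted p = 4.6e-05 and 3.3e-04). Among 12 gibberellin genes 2 synthesis enzymes fell (16.7%, beside 4.66% called lower over all genes). They were GA20OX1, by 3.41 ± 0.45, and GA3OX1, by 2.71 ± 0.62 (adjusted p = 1.0e-04 and 0.0059). The aquaporin PIP1C fell by 1.18 ± 0.11 (adjusted p = 3.6e-06), and 3 of 13 plasma membrane aquaporins fell while RD28 rose. The falls of PIP3 and PIP2;8 (-1.32 ± 0.34 and -1.18 ± 0.32, adjusted p = 0.011 and 0.015) were both lost without HL15 replicate 3, leaving 1 fall, that of PIP3 also without HL15 replicate 2 and that of PIP2;8 also without GL replicate 2, and without HL15 replicate 1 there were 4 falls. The rise of RD28 (1.15 ± 0.23, adjusted p = 0.0028) was lost without HL15 replicate 1, and 26.8% of its 31-base words occur in the transcript of the aquaporin gene AT2G37170, so the split of reads is uncertain. In whole leaves, fewer cells of a type and less RNA per cell cannot be told apart. The guard cell markers were lower too, with 2 of 5 called (MYB60, and FMA, whose call was lost without HL15 replicate 1, at -0.94, or GL replicate 2, at -0.91), all 5 detected, and a summed level of 487 to 604 in HL15 leaves, against 757 to 928 in GL leaves. Of 5 epidermis markers, all detected, none was called by limma, with 1 called lower without HL15 replicate 1. Their median was -0.80, and 3 had all HL15 libraries below GL, beside 25.1% of all genes tested. Their summed level was 8537 to 9647 in HL15 leaves, against 9422 to 10307 in GL leaves. The part of guard cell and epidermis content in these results was not tested.

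Sugar and energy status genes included both strong falls and strong rises, 5 and 2 among 19, or 3 falls without HL15 replicate 3 or GL replicate 1 or 2. The trehalose phosphate synthase family genes TPS8 and TPS11, which are expressed when sugar is low, fell by 2.90 ± 0.29 and 2.53 ± 0.41 (adjusted p = 9.4e-06 and 5.8e-04). BT1, a BTB and TAZ domain protein, had 3782, 4788 and 4670 counts in HL15 leaves, against 600, 535 and 589 in GL leaves (2.93 ± 0.16, adjusted p = 2.9e-08). GPT2, the glucose-6-phosphate translocator induced when carbohydrate is plentiful, had 20.1, 21.0 and 22.6 counts, against 4.43, 2.99 and 4.71 in GL leaves (2.16 ± 0.30, adjusted p = 1.8e-04).

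Further deep falls were those of genes mostly outside the lists described above. Some listed genes fell as far, with lowest differences of -5.41 in the KMD list, -5.34 in the ERF list and -4.49 in the Aux/IAA list. OFP16, an ovate family regulator, had 5.22, 15.6 and 13.2 counts in HL15 leaves, against 353, 408 and 501 in GL leaves (-5.20 ± 0.32, adjusted p = 9.0e-08). AT5G19190, an uncharacterized protein at chr5:6457026-6458504 (plus strand, TAIR10.1), had 35.8, 39.3 and 38.6 counts in HL15 leaves, against 1296, 1468 and 1462 in GL leaves (-5.18 ± 0.39, adjusted p = 4.4e-07). ATCTH, a tandem CCCH zinc finger gene, had 55.2, 63.7 and 63.1 counts, against 1457, 1178 and 1487 in GL leaves (-4.47 ± 0.32, adjusted p = 3.1e-07). In these genes the HL15 replicates agreed within about 3-fold and were far from GL. The wound-responsive family gene AT4G28240 fell by 3.59 ± 0.28, AT3G06070 by 4.0 ± 0.53, AT3G15450 by 3.46 ± 0.55 and BRG1 by 3.35 ± 0.27 (adjusted p = 6.7e-07, 1.0e-04, 5.2e-04 and 8.4e-07). GER3, a germin, and AT5G48490, a lipid-transfer protein, fell by 4.14 ± 0.95 and 4.27 ± 1.11 (adjusted p = 0.006 and 0.012). AT5G48490 lost its call without HL15 replicate 3 (-3.92). AT1G11850 fell by 3.42 ± 0.90 (adjusted p = 0.013) and lost its call without HL15 replicate 2 (-3.11), HL15 replicate 3 (-3.03) or GL replicate 2 (-3.14).

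Other stress hormone lists had called shares nearer the 9.45% of all genes. Of 24 abscisic acid genes 2 rose and 1 fell (12.5%), among them the phosphatase gene HAI1, which rose by 2.37 ± 0.38 (adjusted p = 5.3e-04), and the catabolic gene CYP707A4, which rose by 2.07 ± 0.38 (adjusted p = 0.0014). Of 9 abscisic acid receptor genes 8 had all HL15 libraries below GL, as did 25.1% of all genes tested. Only 1, PYL2, was called lower (-1.11 ± 0.30, adjusted p = 0.015). Its call was lost with a pseudocount of 5, with quantile scaling and without HL15 replicate 2 or 3 or GL replicate 1. Among 21 salicylic acid genes 3 rose (14.3%), or 2 without any 1 library except GL replicate 1, including the regulators SARD1 and CBP60G (2.13 ± 0.51 and 2.06 ± 0.46, adjusted p = 0.0075 and 0.0051). Of 4 galactinol and raffinose synthesis genes, 2 galactinol synthases, which start the raffinose pathway, rose, and 2 genes were not called. The synthase gene GolS3 had 149, 158 and 152 counts in HL15 leaves, against 161, 128 and 172 in GL leaves (0.00 ± 0.50). GolS1 had 14137, 5961 and 6243 counts in HL15 leaves, against 773, 546 and 773 in GL leaves (3.55 ± 0.64, adjusted p = 0.0013), and GolS2 had 5213, 4861 and 4858 counts, against 762, 653 and 664 in GL leaves (2.85 ± 0.37, adjusted p = 1.0e-04).

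Genes of endoplasmic reticulum stress gave 4 rises and 1 fall among 24, or 5 and 0 without HL15 replicate 1, and the fall, of NAC103 (-1.29 ± 0.44, adjusted p = 0.044), was lost without any 1 of the 6 libraries. The co-chaperone gene ATERDJ3A had 6928, 2625 and 2676 counts in HL15 leaves, against 54.3, 62.8 and 47.1 in GL leaves (6.04 ± 0.41, adjusted p = 1.8e-07). The stress sensors BZIP28 and BZIP17 rose by 1.38 ± 0.10 and 1.22 ± 0.10 (adjusted p = 3.7e-07 and 1.1e-06). Of 73 NAC factors 11 rose and 5 fell (21.9%, beside 9.45% called over all genes). Without 1 library, 8 to 11 rose and 2 to 4 fell (2 falls without HL15 replicate 3 or GL replicate 1 or 2, 3 without HL15 replicate 1 or GL replicate 3). ATAF1, TIP and NAC2 rose by 2.18 ± 0.23, 1.77 ± 0.12 and 1.76 ± 0.10 (adjusted p = 1.2e-05, 1.8e-07 and 3.1e-08).

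The state at 15 min was also set beside that at 60 min of the same light. Between HL15 and HL60 leaves 1312 genes were higher at HL60 (6.40%) and 1276 lower (6.22%), together 12.6%, from a contrast that shares the HL15 libraries with the one above. HSFA7A had a mean of 65.0 counts at HL60, 5.45 lower on the log2 scale than at HL15 (adjusted p = 3.4e-06), HSFA2 of 1667 (-4.16, adjusted p = 1.3e-05) and BAG6 of 1962 (-4.93, adjusted p = 2.1e-06). HSP17.4 had 10398, 28011 and 13235 counts at HL60, with a mean of 17215, and differed from HL15 by 0.85 (adjusted p = 0.31). None of the 12 cytosolic small heat shock protein genes was called higher and 4 were called lower at HL60. Regulators and co-chaperones were therefore among the genes that were lower at 60 min, while several small heat shock proteins did not pass the test of a difference. The spread among HL60 and HL15 libraries limits that test. ARR7 had a mean of 693 at HL60 (3.46 higher than at HL15, adjusted p = 5.1e-09) and ARR6 of 724 (2.80, adjusted p = 4.6e-06). BBX14 was lower still, with a mean of 46.3 (-2.54, adjusted p = 1.6e-04). Of 24 endoplasmic reticulum stress genes 15 were higher and 3 lower at HL60 than at HL15, and of 23 flavonoid genes 12 were higher and 1 lower. TT4 had a mean of 1508 at HL60 (2.57, adjusted p = 0.0014) and PAL1 of 3700 (2.3, adjusted p = 1.4e-07).

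**Figure D5:**
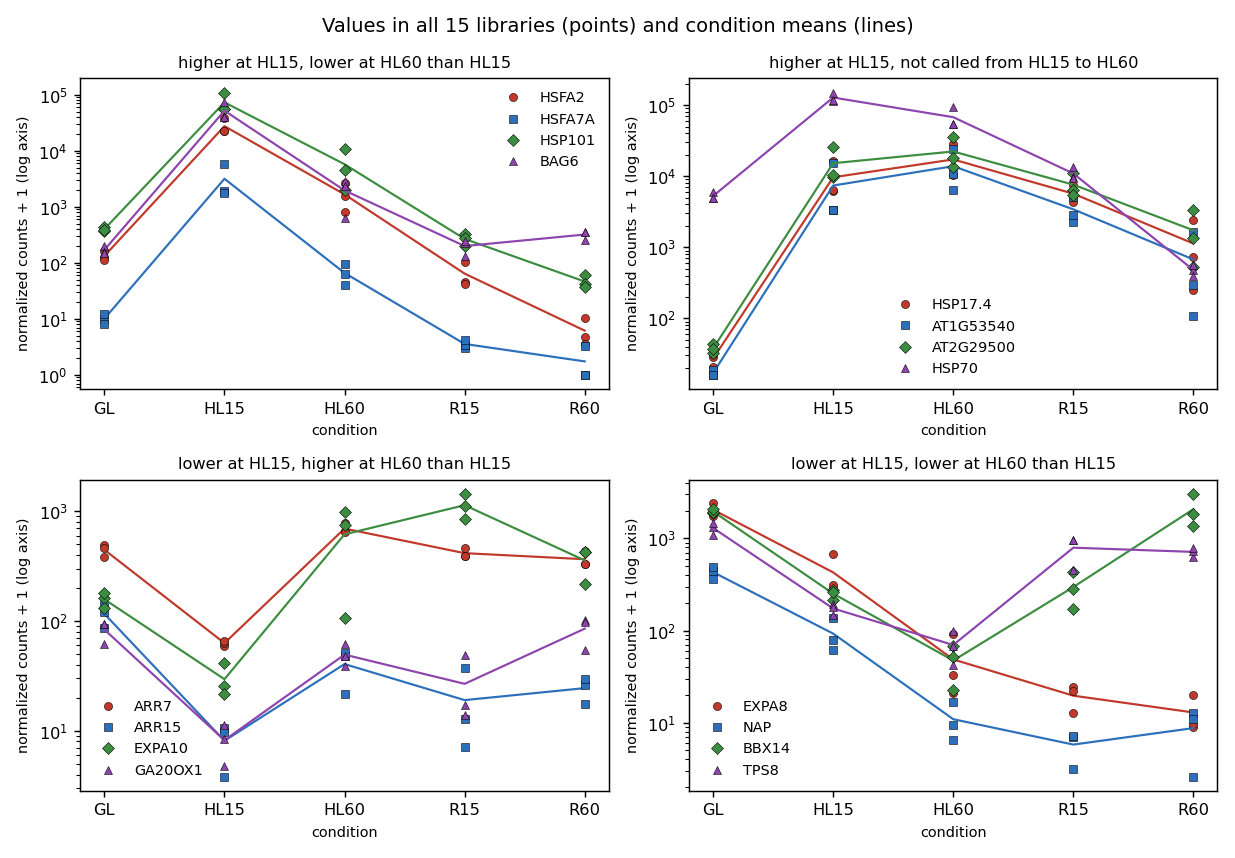
Normalized counts (log axis) of selected genes in each library at GL, HL15, HL60, R15 and R60, with lines through the group means. HSFA2 and HSFA7A were highest at HL15, and ARR7 was lower at HL15 (58.2 to 65.0 counts) than in GL (380 to 489 counts).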

How the data were processed

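RNA from leaves was extracted with the innuPREP kit and sequenced at BGI. The authors quantified reads with Salmon 0.12 on TAIR10 cDNA sequences, and deposited 1 table of normalized counts (a signal, not raw reads, with DESeq2 named as the statistics tool) with a column for each of the 15 libraries. Of the low values of the HL15 and GL libraries, 60.2 to 63.3% were whole multiples of 1 read (tolerance 0.01 of a read). The share was 100% for genes with 1 annotated transcript and 10.7 to 13.2% for the other genes. As the table holds normalized values that are not all whole reads, no count test was used. All per-sample columns were used.

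Genes with a sum under 10 over the 15 libraries were left out. The limma package 3.58.1 (R 4.3.3) was run on log2(value + 1), all 15 libraries in 1 fit with a variance trend, and tested for HL15 minus GL and HL60 minus HL15 with Benjamini-Hochberg adjustment. The same steps were tested on simulated data. An exact permutation test of 3 against 3 libraries cannot give a two-sided p under 0.1 and was not used. Replicate numbers did not pair the libraries. Depth is an estimate from the steps of the values, and low counts limit precision.

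Genes, lists and tests were chosen with earlier results of these data known. Named genes were the 12 largest rises and falls among called genes whose HL15 and GL libraries did not overlap and averaged at least 100, and in each of 50 lists at most 6 called genes of largest change and at most 3 that were not called. Genes picked otherwise are marked as chosen after their values were seen. The lists' loci were looked up in RefSeq TAIR10.1, where 43 do not carry the name used in the list and were kept. Words of 31 bases shared between transcripts marked genes whose reads may be split. Promoters were the 250 bases before the gene start in RefSeq TAIR10.1, read from the genome for 20337 genes.

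Alternatives were another pseudocount (0.5 or 5), upper-quartile or quantile scaling, no filter or a mean of 10 or more, a fit of the HL15 and GL libraries only, a replicate block, no variance trend, a test against 1.5-fold, and leaving out each replicate. The average of HL15 replicates 2 and 3 as 1 sample was added after the data were seen, since these libraries were so alike. The counts of called genes in each list without each replicate were also added after the data were seen.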

Additional observations from a re-analysis of the deposited data

How the results depend on the processing

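The count of genes changed at HL15 was 1939. It lay between 801 and 2200 under the 11 settings other than leaving out a replicate, with the lowest value from the test against 1.5-fold (801, with 456 higher and 345 lower) and the highest from a fit of the HL15 and GL libraries only. Leaving out 1 replicate gave 1495 to 2121 genes. With HL15 replicates 2 and 3 averaged the count was 1466 (740 higher and 726 lower). On adjusted p alone, 5055 genes passed, 3174 with replicates 2 and 3 averaged and 3216 to 5047 without 1 replicate, lowest without HL15 replicate 2 (3216) or 3 (3245). From HL15 to HL60, 2588 genes changed, 1336 in the test against 1.5-fold (652 higher and 684 lower) and 2112 to 3457 without 1 replicate, highest without HL60 replicate 1. The share of higher genes among those changed at HL15 was 50.7%, 47.1% with upper-quartile and 53.4% with quantile scaling, and these moved the median of all genes by at most 0.03. The medians of 3 lists changed sign between scalings (scavenging enzymes, phloem companion cell markers and NAC factors) and stayed between -0.07 and 0.10.

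Same-numbered HL15 and GL libraries did not deviate together (correlations of -0.027, -0.083 and 0.059 over 20512 genes), so the number was not treated as a pairing. With the replicate block 1903 genes changed at HL15 (979 higher and 924 lower), 4763 on adjusted p alone and 2568 from HL15 to HL60. Of the 200 named genes, 158 kept their call under every alternative run, 42 had another call under at least 1 of them, and none changed sign. The cause of these differences was not tested. The 3 libraries in each group set the precision, and differences of genes with a few counts depend on the pseudocount.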

Other observations

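Some of the genes that rose had no counts in growth light. In 24 genes called higher, all GL libraries were at 0. Several of them had an HL15 mean under a floor of 3 counts per library, the lowest 2.03, so they give no fold bound. AT1G07500 had a mean of 94.2 counts in HL15 leaves, at least 31.4-fold above a floor of 3 counts per library (29.1 without HL15 replicate 1), and AT3G57730 a mean of 72.6, at least 24.2-fold above it (23.9 without that replicate). Both were chosen after their values were seen. In the opposite direction DIR1, a lipid-transfer protein of systemic resistance, was at 0 in all HL15 libraries and had a mean of 54.2 counts in GL leaves, a level at least 18-fold lower in HL15 leaves. It too was chosen after its values were seen.

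Transcripts of the organelle genomes took very small shares of the libraries. Of 89 mitochondrial genes tested 12 were called higher and none lower, with a median of 0.90, beside 4.79% called higher over all genes. Their share of all counts was 0.00784, 0.00792 and 0.00760% in HL15 leaves, against 0.00308, 0.00381 and 0.00502% in GL leaves. Of 84 plastid genes 1 was called higher, with a median of 0.22 and shares of 0.0268 to 0.0278% in HL15 leaves, against 0.0246 to 0.0309% in GL leaves. How the RNA was selected before sequencing is not given in the sources used here.

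Genes that changed had fewer exons than most. Single-exon genes were 23.4% of the genes called higher, 27.8% of those called lower and 35.1% of those raised at least 16-fold, against 14.5% of all tested genes with a promoter read. The median number of exons was 3, 3 and 2 in these sets, against 5 over all. These are shares over genes and no test was made of them.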
